A study of Mus musculus with 19 samples.

Results

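The acyl-CoA thioesterase (Acot) genes Acot1, Acot2, Acot3, Acot4, Acot5, Acot7, Acot8, Acot9, Acot12 and Acot13 were followed mouse by mouse in liver. They are 10 of the 51826 gene entries listed, found by symbol. The family was picked because Acot1 was among the genes lowest at involution relative to lactation, so its stage differences are given as descriptions with no test. Liver RNA came from 19 female Balb/c mice, all labelled 12 weeks old: 7 nulliparous mice (NUL), 6 at lactation day 10 (LAC) and 6 at involution day 6 (ID6), the sixth day after weaning. Each sample was a piece of frozen liver (the caudate lobe, according to the methods) from 1 mouse, and the labels name no treatment or engineered allele for any of them. The methods name 2 suppliers of these mice, and neither the methods nor the labels say which mouse came from which supplier or at what hour livers were taken. Levels are in TPM, a share of all transcripts that corrects for gene length.

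Acyl-CoA thioesterases hydrolyze an activated fatty acid, the acyl-CoA ester, to the free fatty acid and coenzyme A (CoA). They work against the acyl-CoA synthetases, and between them these enzymes set how much of the acid in a compartment is activated. In liver, several of the type I genes are textbook targets of PPARα, the nuclear receptor for fatty acids that drives fatty acid oxidation during fasting. Acot1 is cytosolic, Acot2 sits in the mitochondrial matrix, and Acot3, Acot4 and Acot5 are peroxisomal. Of the type II enzymes, Acot7 and Acot12 are cytosolic, Acot8 is peroxisomal, Acot9 is mitochondrial, and Acot13 is found at mitochondria and in the cytosol.

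The type I genes lie side by side. On GRCm38, Acot2, Acot1, Acot4, Acot3, Acot5 and the non-member Acot6 follow each other on the plus strand of chromosome 12 between 83987861 and 84111349, within 123489 bases. Acot1 spans chr12:84009490-84018371 and Acot2 chr12:83987861-83993873. The other members are scattered, with Acot7 on chromosome 4, Acot8 on chromosome 2, Acot9 on the X chromosome, and Acot12 and Acot13 on chromosome 13. The paralogs share sequence: 12.2% of all 150-base windows of the Acot1 transcripts also occur in another Acot transcript, mostly Acot2, and 10.2% of those of Acot2. For Acot3 the share is 2.60% and for Acot5 3.04%, and no window of Acot4, Acot7, Acot8, Acot9, Acot12 or Acot13 is shared at that length. With 50-base windows the shares are 31.8% for Acot1, 27.6% for Acot2, 22.1% for Acot5 and 20.2% for Acot9, which shares them with Acot10. Reads from shared stretches are divided between the paralogs by estimation, so the values of Acot1, Acot2 and Acot5 carry that uncertainty.

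The 250 bases before the start of the cluster members expressed in these livers are shown because these genes varied together, and that of Acot12 because it holds the closest match to the element searched. The sequences are from RefSeq (GRCm38.p6, the C57BL/6J reference, not Balb/c), which gives a promoter for 9 of the 10 members. PPARα binds with RXR to 2 copies of AGGTCA 1 base apart. Capitals mark the best match to AGGTCANAGGTCA on either strand, the only motif searched.
Acot1, chr12:84009252-84009501, plus strand: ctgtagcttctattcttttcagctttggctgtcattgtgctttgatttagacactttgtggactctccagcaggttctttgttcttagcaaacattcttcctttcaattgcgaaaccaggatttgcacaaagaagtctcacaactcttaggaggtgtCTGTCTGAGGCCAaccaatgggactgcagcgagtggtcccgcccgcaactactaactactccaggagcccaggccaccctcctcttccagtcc
Acot2, chr12:83987611-83987860, plus strand: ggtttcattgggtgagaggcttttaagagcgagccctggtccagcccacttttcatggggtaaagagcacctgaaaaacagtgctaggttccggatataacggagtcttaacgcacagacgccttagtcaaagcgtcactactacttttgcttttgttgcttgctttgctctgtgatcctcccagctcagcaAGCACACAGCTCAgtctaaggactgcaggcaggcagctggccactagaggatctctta
Acot4, chr12:84038129-84038378, plus strand: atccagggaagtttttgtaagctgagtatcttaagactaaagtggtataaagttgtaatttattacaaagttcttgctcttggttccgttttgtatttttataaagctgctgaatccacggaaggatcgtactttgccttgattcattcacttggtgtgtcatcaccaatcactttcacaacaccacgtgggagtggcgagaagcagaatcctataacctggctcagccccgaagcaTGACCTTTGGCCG
Acot3, chr12:84051894-84052143, plus strand: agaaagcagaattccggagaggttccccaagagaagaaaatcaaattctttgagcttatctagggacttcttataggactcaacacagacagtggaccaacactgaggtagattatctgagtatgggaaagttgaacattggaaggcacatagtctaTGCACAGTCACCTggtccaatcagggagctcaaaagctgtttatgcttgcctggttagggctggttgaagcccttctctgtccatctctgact
Acot12, chr13:91741271-91741520, plus strand: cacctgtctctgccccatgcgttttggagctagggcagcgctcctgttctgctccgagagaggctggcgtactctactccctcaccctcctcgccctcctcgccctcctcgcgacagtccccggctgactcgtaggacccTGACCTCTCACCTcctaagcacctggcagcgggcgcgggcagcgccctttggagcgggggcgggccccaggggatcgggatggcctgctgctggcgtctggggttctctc

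In Acot12 the best match had 1 mismatch, C5G, counting from 1 at the 5′ end of the motif and reading along the strand of the match, which was the minus strand 110 to 98 bases before the start. Of 32851 promoters of the same length, 0.484% held a match with at most 1 mismatch. Acot4 had 2 mismatches, A1C and T4C, on the minus strand directly before the start, and 3.24% of promoters held a match at least that close. Acot2 had 3 mismatches, as close as in 21.3% of promoters. Acot1 and Acot3 had 4, which 74.5% of promoters match or better. These are matches of letters within a short window and say nothing of where a factor was bound.

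The sample titles carry an animal number, and the family followed it. Numbers under 200 belong to 3 NUL mice (NUL_1 to NUL_13) and 3 LAC mice (LAC_36 to LAC_133), and numbers of 200 and above to 4 NUL mice (NUL_220 to NUL_227), 3 LAC mice (LAC_200 to LAC_240) and all 6 ID6 mice (ID6_201 to ID6_232). No source names these ranges as a batch, and involution cannot be told apart from range where ID6 mice are set against lower-numbered mice. Genes at 1 TPM or more numbered 11209 to 11797 per mouse, and read depth is unknown because TPM does not keep it. All 8 hepatocyte markers were detected in every stage, and their sum was 62860 to 75350 TPM in lower-numbered and 75880 to 97530 TPM in higher-numbered NUL mice, 101500 to 112000 TPM against 130100 to 151300 TPM in LAC, and 83150 to 112500 TPM at ID6.

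Acot1, the cytosolic long-chain enzyme, varied most. It measured 77.3, 78.2 and 123 TPM in the NUL mice numbered under 200 and 5.58, 11.4, 8.58 and 9.38 TPM in those numbered 200 and above. In LAC mice it was 163, 198 and 176 TPM in the lower range and 12.8, 17.8 and 12.6 TPM in the higher. At ID6 it was 2.00, 5.62, 4.47, 3.20, 4.33 and 4.61 TPM. No lower-numbered mouse came near a higher-numbered one: the mean was 10.7-fold higher in the lower range among NUL mice and 12.4-fold higher among LAC mice. Ordered by mean, LAC under 200 stood first (179 ± 17.7 TPM, SD, n = 3), then NUL under 200 (92.9 ± 26.2, n = 3), LAC at 200 and above (14.4 ± 2.96, n = 3), NUL at 200 and above (8.72 ± 2.40, n = 4) and ID6 (4.04 ± 1.26, n = 6). Neighbours in that order did not overlap, except that the highest ID6 mouse lay just above the lowest NUL mouse of the higher range.

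**Figure D1:**
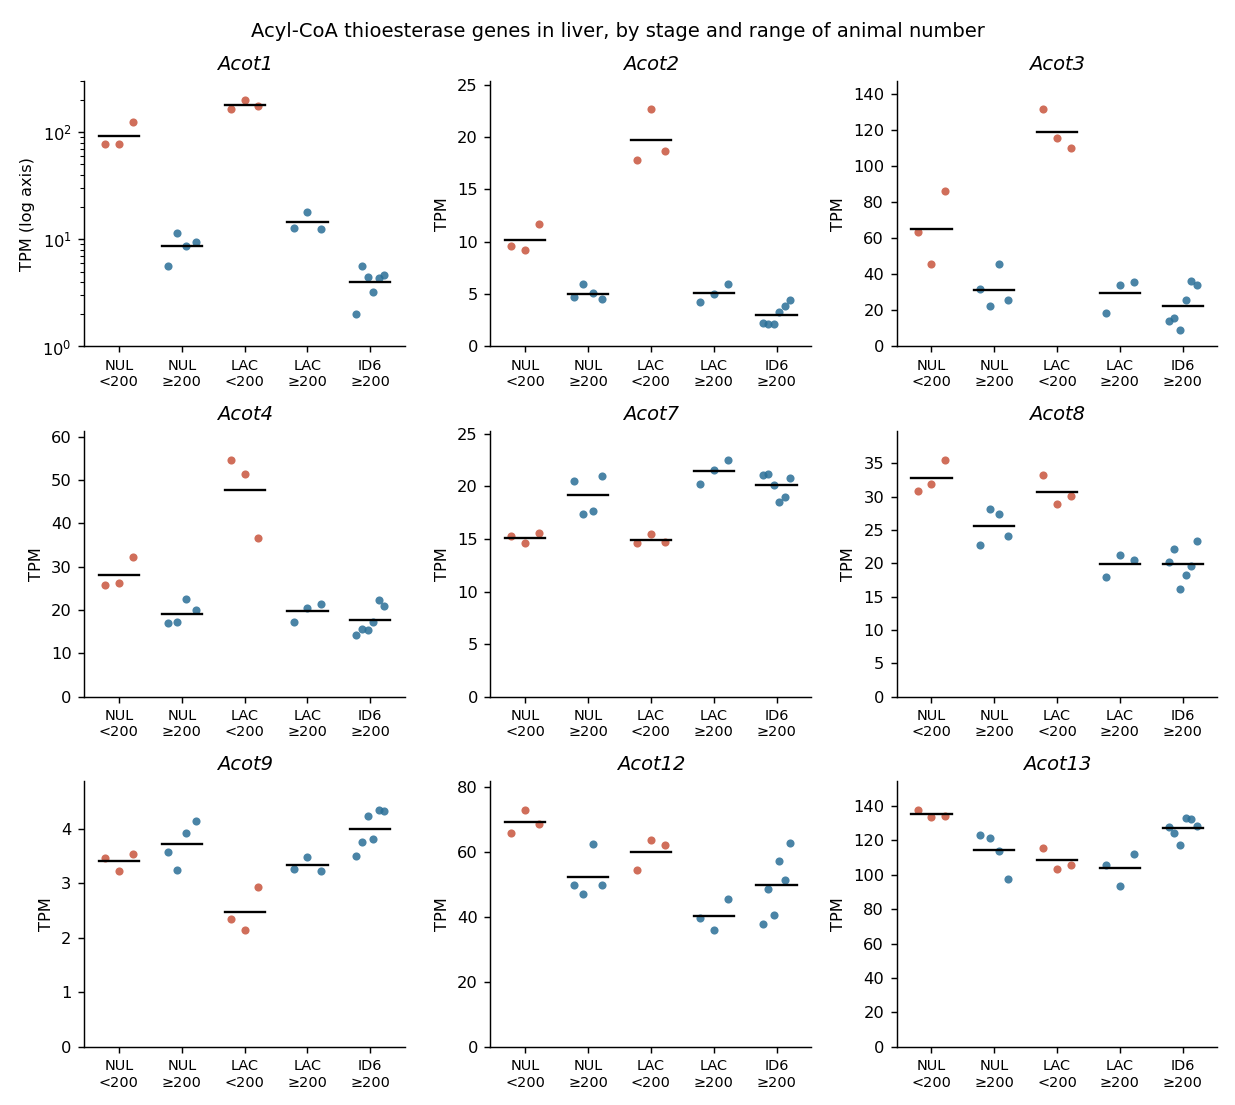
Level of 9 members in TPM (vertical axes, logarithmic for Acot1 only) in each mouse (points), grouped by stage and range of animal number (red under 200, blue 200 and above), with the group mean as a line. Acot1 lies at 77.3 TPM or more in all 6 mice numbered under 200 and at 17.8 TPM or less in all 13 others, and Acot7 shows the opposite order.

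Acot2, the mitochondrial long-chain enzyme, showed the same split on a smaller scale. In NUL mice it was 9.63, 9.25 and 11.7 TPM in the lower range and 4.69, 5.94, 5.06 and 4.53 TPM in the higher. In LAC mice it was 17.8, 22.6 and 18.7 TPM against 4.23, 5.01 and 6.01 TPM. The ranges did not overlap in either stage, and ID6 mice measured 2.12 to 4.41 TPM. The ratio of Acot1 to Acot2 was 8.99 ± 1.32 and 9.12 ± 0.333 (SD, n = 3 each) in the lower-numbered NUL and LAC mice, 1.72 ± 0.384 (n = 4) and 2.89 ± 0.742 (n = 3) in the higher-numbered ones, and 1.46 ± 0.729 (n = 6) at ID6. The cytosolic member was thus the larger of the pair by the widest margin in the lower-numbered mice.

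The peroxisomal type I genes moved with them. Acot3, a long-chain enzyme, measured 45.7 to 86.1 TPM in the lower-numbered NUL mice and 22.5 to 46.0 TPM in the higher-numbered ones, which overlapped by 1 mouse. In LAC mice it was 110.1 to 132 TPM against 18.8 to 35.99 TPM. Acot4, which acts on succinyl-CoA and other dicarboxylic acyl-CoAs, was 25.8 to 32.3 TPM against 17.0 to 22.5 TPM in NUL and 36.6 to 54.7 TPM against 17.2 to 21.4 TPM in LAC. Acot5, the medium-chain enzyme, was barely detected at 0 to 0.09 TPM, was below the 0.1 TPM mean required for testing, and was above 0 in all 6 lower-numbered mice and listed at 0 in all 7 higher-numbered NUL and LAC mice.

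Among the type II genes, Acot8 and Acot12 were also higher in the lower range and Acot7 was lower. Acot8, the broad peroxisomal enzyme that also takes bile acid CoA esters, measured 30.8 to 35.6 TPM against 22.8 to 28.1 TPM in NUL and 29.0 to 33.3 TPM against 17.9 to 21.3 TPM in LAC. Acot12, the cytosolic acetyl-CoA hydrolase of liver, measured 66.0 to 73.1 TPM against 47.2 to 62.4 TPM and 54.4 to 63.8 TPM against 36.04 to 45.5 TPM. Acot7, best known from brain, measured 14.6 to 15.6 TPM against 17.4 to 21.0 TPM and 14.6 to 15.5 TPM against 20.3 to 22.6 TPM. Acot13, also known as Them2, had the highest mean of the family in every group except the lower-numbered LAC mice, where Acot1 and Acot3 were above it. It spanned 93.8 to 138 TPM over all mice. In NUL it was 133.8 to 137.9 TPM against 97.8 to 123 TPM, with no overlap between ranges. In LAC the ranges overlapped, at 103.6 to 115.4 TPM against 93.8 to 111.8 TPM. Acot9 was low, at 2.14 to 4.35 TPM over all mice, and its ranges overlapped in NUL but not in LAC.

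The range difference was tested within the NUL mice, none of which took part in the comparison of ID6 with LAC that chose the family. The family was still chosen with the stage values of all mice known, and this fit was added after seeing the data. Its p-values are therefore not an independent test. With limma on log2(TPM + 1), and a spread shared between NUL and LAC mice, 7 of the 9 members tested differed between the 4 higher-numbered and the 3 lower-numbered NUL mice at an adjusted p under 0.05, against 20.6% of the 16230 genes tested. From the lower to the higher range Acot1 fell by 3.27 on the log2 scale (SE 0.22, adjusted p = 2.33e-06), Acot2 by 0.89 (SE 0.13, adjusted p = 8.26e-04), Acot3 by 1.03 (SE 0.28, adjusted p = 0.0217) and Acot4 by 0.53 (SE 0.15, adjusted p = 0.0250). The peroxisomal Acot8 fell by 0.35 (SE 0.092, adjusted p = 0.0204) and the cytosolic Acot12 by 0.40 (SE 0.10, adjusted p = 0.0189). Acot7 rose by 0.32 (SE 0.077, adjusted p = 0.0142). Acot9 (0.097, SE 0.10, adjusted p = 0.535) and Acot13 (-0.25, SE 0.086, adjusted p = 0.0614) missed the threshold.

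In LAC mice the range difference is a description, since those mice took part in the choice and all ID6 mice lie in the higher range, so that genes high in the lower-numbered LAC mice were favoured. The log2 differences of LAC mice (3 against 3) were -3.56 for Acot1 (SE 0.23), -1.77 for Acot2 (SE 0.14), -2.02 for Acot3 (SE 0.29) and -1.21 for Acot4 (SE 0.16). They were -0.60 for Acot8 (SE 0.099), -0.57 for Acot12 (SE 0.11), 0.49 for Acot7 (SE 0.082), 0.32 for Acot9 (SE 0.11) and -0.063 for Acot13 (SE 0.092). An adjusted p under 0.05 was reached by 7 members, beside 10.6% of all genes, a count that the choice favoured. The fits that follow hold the same LAC mice, so their counts of members are descriptions and no support. With both stages together (n = 13, stage as a covariate) 7 members were under that limit, beside 25.6% of all genes, 6 of them lower at 200 and above, beside 9.11%, and 3 lower by at least 1 on the log2 scale, beside 1.94%. The share of higher genes among all that passed was 64.4%, or 47.3% under median-ratio scaling. In that fit Acot1 stood at -3.41 (SE 0.16), rank 15 among the genes that were lower, a list headed by the major urinary protein gene Mup14. The interaction of stage and range passed for none of the 9 members with limma, beside 0.111% of all genes. At an unadjusted p under 0.05 it counted 3 members, beside 2161 of the 16230 genes tested. They were Acot2 (-0.88, SE 0.19, adjusted p = 0.121), Acot3 (-0.99, SE 0.40, adjusted p = 0.325) and Acot4 (-0.68, SE 0.22, adjusted p = 0.226).

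**Figure D2:**
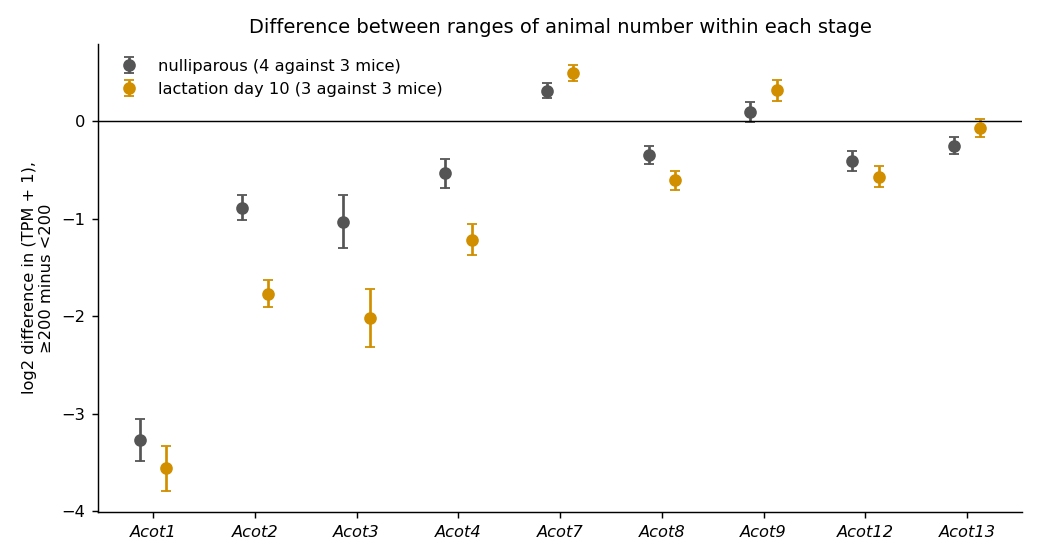
Log2 difference in (TPM + 1), animal numbers of 200 and above minus those under 200, for 9 members (horizontal axis) within NUL mice (gray) and within LAC mice (orange), with standard errors from limma. Acot1 is lower by more than 3 log2 units in both stages, and Acot7 lies above 0 in both.

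Other measures moved with the range. Zhx2, a repressor of fetal liver genes, and its known targets H19 and Afp were looked at after the mice were seen to separate, and their levels are descriptions. Zhx2 was 2.36 to 3.73 TPM in the 6 lower-numbered mice and 0.06 to 0.27 TPM in the 13 others. H19 was 0.05 to 14.1 TPM in the former and 14.9 to 475 TPM in the latter. Afp overlapped between ranges in NUL mice, at 1.6 to 3.16 TPM against 1.74 to 2.82 TPM, and was 3.30 to 4.98 TPM against 6.01 to 7.12 TPM in LAC. The summed level of 6 Kupffer cell and macrophage markers was 151 to 194 TPM in lower-numbered and 240.2 to 289 TPM in higher-numbered NUL mice, 99.2 to 139.8 TPM against 147 to 208 TPM in LAC, and 338 to 478 TPM at ID6. In whole liver, fewer cells of a type and less RNA per cell cannot be told apart. Of 12 clock genes, 4 passed between ranges, all of them higher at 200 and above, against 16.5% of all genes higher, Npas2 and Cry1 by over 1 on the log2 scale. Under median-ratio scaling 3 were higher and 1 lower. The part of these measures in the thioesterase differences was not tested. The 5 muscle markers were summed at 226.1 and 41.3 TPM in NUL_1 and NUL_4 and at 0.99 TPM in NUL_13. Acot1 was 77.3, 78.2 and 123 TPM in NUL_1, NUL_4 and NUL_13. The part of muscle RNA in the thioesterase differences was not tested either. The muscle sums were 0.82 to 1.56 TPM in higher-numbered NUL mice and 0.28 to 8.57 TPM at ID6. In LAC they were 0.87 to 17.61 TPM in lower-numbered and 0.17 to 0.96 TPM in higher-numbered mice. Of these markers, Myh6 was under 0.1 TPM on average. Of 5 fat cell markers, Cidea, Ucp1 and Lep were likewise under 0.1 TPM. All 5 together summed to 0.04 to 2.08 TPM in NUL, 0.08 to 0.8 TPM in LAC and 0.14 to 4.0 TPM at ID6.

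Between NUL and LAC mice, the pooled levels of the type I genes differed less than the mice within a stage did. Acot1 averaged 44.8 ± 47.5 TPM (SD, n = 7) in NUL and 96.8 ± 90.9 TPM (n = 6) in LAC, a log2 difference of 1.06 with SE 0.80. Within ranges the stages separated: LAC exceeded NUL 1.93-fold under 200 and 1.65-fold at 200 and above, with no overlap in either. For Acot2, Acot3 and Acot4, LAC mice of the lower range stood above all NUL mice of that range, at 1.93-fold, 1.83-fold and 1.69-fold. In the higher range the LAC to NUL ratios of these genes were 1.006, 0.942 and 1.03, and the mice overlapped. Their interaction of stage and range, given above, did not pass an adjusted p under 0.05. That fit holds LAC mice that took part in the choice, so it is a description. With 3 to 4 mice per stage and range it can show the ranges neither alike nor different. Over all genes, 0.746% were called between NUL and LAC, which asks for a log2 difference of 1 or more besides an adjusted p under 0.05. Here and elsewhere, the share of all genes whose mice do not overlap between groups is not given. With as few as 3 mice in a group, separation can arise without an effect of stage or range.

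Among the type II genes, Acot8, Acot9, Acot12 and Acot13 had lower pooled means in LAC than in NUL mice, and Acot7 did not. Acot8 and Acot12 of the higher range stood below all NUL mice of that range, at 17.9 to 21.3 TPM and 36.04 to 45.5 TPM, ratios of 0.779 and 0.772. Acot9, Acot12 and Acot13 were lower in LAC than in NUL mice of the lower range without overlap, at ratios of 0.726, 0.8685 and 0.801. Acot12 was thus separate in both ranges. Acot7 had a ratio of 0.987 in the lower and 1.121 in the higher range.

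At ID6 the means of Acot1 to Acot4 were the lowest of all groups. Relative to LAC, where 1.93% of all genes were called, the pooled log2 differences were -3.42 for Acot1 (SE 0.83), -1.51 for Acot2 (SE 0.35), -1.49 for Acot3 (SE 0.46) and -0.78 for Acot4 (SE 0.25). The pooled mean of Acot1 was 23.96-fold lower. Set against the 3 LAC mice of its own range it was 3.57-fold lower, still without overlap. In mice numbered 200 and above the log2 differences shrank to -1.64 for Acot1 (SE 0.24), -0.63 for Acot2 (SE 0.18), -0.48 for Acot3 (SE 0.38) and -0.17 for Acot4 (SE 0.14), and the mice overlapped in all but Acot1. The share of higher genes among those called over all genes was 53.2%, or 38.7% under median-ratio scaling. The ID6 Kupffer marker sum exceeded that of every other mouse, and the summed red blood cell markers were 196.5 to 847 TPM at ID6 against 1331 to 3336 TPM in LAC. Their part in these differences was not tested.

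Acot9 and Acot13 went the other way. Acot9 was 3.50 to 4.35 TPM at ID6 and 2.14 to 3.49 TPM in LAC, a log2 difference of 0.37 (SE 0.091), or 0.20 (SE 0.093) at 200 and above. Acot13 was 117.6 to 133.3 TPM at ID6 and 93.8 to 115 TPM in LAC, a log2 difference of 0.26 (SE 0.074) that was 0.29 (SE 0.081) within the higher range and 0.11 under median-ratio scaling of all mice. Neither gene overlapped between these stages, pooled or within the higher range. At an adjusted p under 0.05, 18.1% of all genes were higher at ID6 than in LAC, or 10.5% within the higher range. The median log2 difference over all genes was 0.099, or 0.0011 under median-ratio scaling. Acot12 was level when pooled (-0.0024, SE 0.16) and 0.28 (SE 0.15) within the range. Acot8 went from -0.31 (SE 0.14) to -0.0075 (SE 0.11), and Acot7 from 0.16 (SE 0.11) to -0.090 (SE 0.078).

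**Figure D3:**
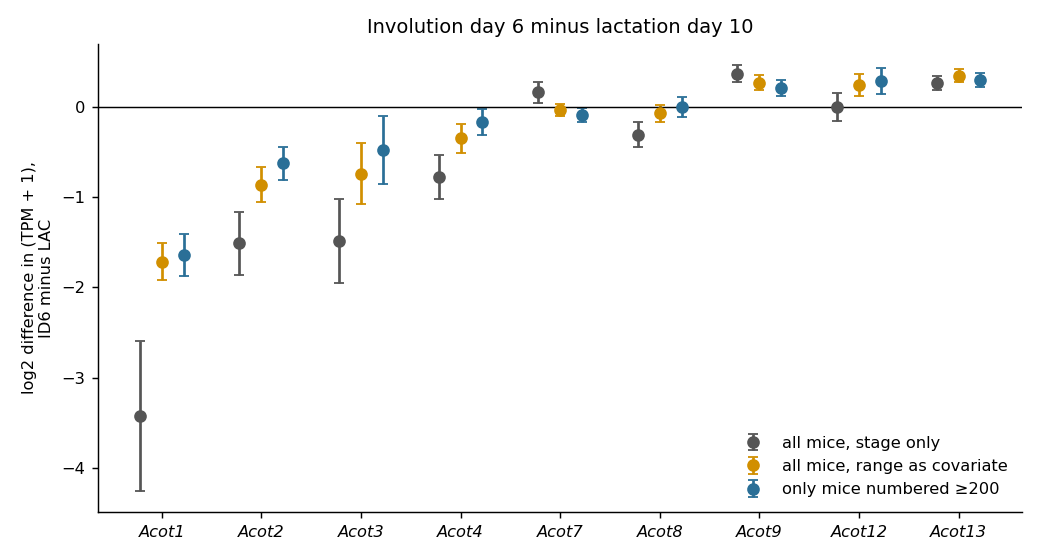
Log2 difference in (TPM + 1), ID6 minus LAC, for 9 members (horizontal axis) with standard errors, from all mice by stage only (gray), from all mice with range as a covariate (orange) and from mice numbered 200 and above (blue). The differences of Acot1 to Acot4 are nearer to 0 once range is taken into account, with Acot1 still at -1.64 in the higher-numbered mice.

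Against NUL mice, where 0.253% of all genes were called, the ID6 level of Acot1 was 2.16-fold lower within the higher range, with 1 ID6 mouse above the lowest NUL mouse. Acot2 was 1.68-fold lower there, at 2.12 to 4.41 TPM against 4.53 to 5.94 TPM with no overlap. The log2 differences in that range were -0.96 for Acot1 (SE 0.22), -0.63 for Acot2 (SE 0.17), -0.57 for Acot3 (SE 0.35), -0.13 for Acot4 (SE 0.13) and -0.35 for Acot8 (SE 0.10). The pooled Acot8 difference was -0.50 (SE 0.14). Acot7, Acot9, Acot12 and Acot13 differed by 0.070, 0.080, -0.084 and 0.16 on the log2 scale.

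Summed over the 10 members, the family measured 353 ± 98.0 TPM in NUL (SD, n = 7), 420 ± 179 TPM in LAC (n = 6) and 268 ± 29.1 TPM at ID6 (n = 6). Acot1 to Acot5 made up 62.7% ± 1.6 of that sum in lower-numbered LAC mice, 43.0% ± 5.9 in lower-numbered NUL mice, 26.6% ± 4.3 and 23.0% ± 2.7 in the higher-numbered ones, and 17.2% ± 3.9 at ID6. Acot13 alone made up 18.6% ± 1.3 in lower-numbered LAC mice and 47.8% ± 3.8 at ID6. The type I share thus followed the order of the Acot1 levels, and it was the larger part of the family only in the lower-numbered LAC mice.

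**Figure D4:**
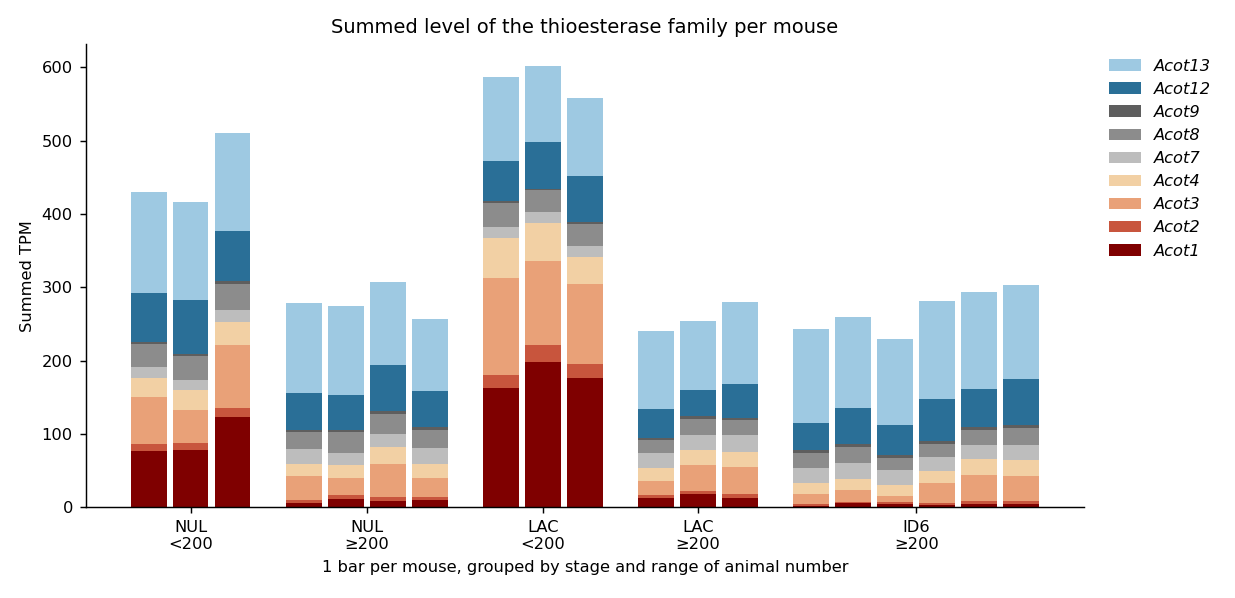
Summed TPM of the family (vertical axis) in each mouse (1 bar per mouse), stacked by member and grouped by stage and range of animal number; Acot5 is too low to draw. The 6 mice numbered under 200 reach 416 to 602 TPM, and the difference from the others lies mostly in Acot1 and Acot3.

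The members varied together across mice to different degrees. Over the 19 mice the Pearson r of log2(TPM + 1) between Acot1 and Acot2 was 0.949, and once each mouse was expressed as its deviation from the mean of its stage and range it was 0.295. Between Acot2, Acot3 and Acot4 the deviations still had r of 0.655 to 0.767 (n = 19), and Acot2 and Acot3 had r of 0.641 and 0.656 with Acot12. The points share libraries, stages and ranges, and r is given as a description. Over all mice the genes most like Acot1, of 11578 compared, were Retsat (r = 0.975), Slc25a17 (0.969), Aldh1a1 (0.964), Rdh16 (0.962), Kyat1 (0.960), Abhd6 (0.960), Pgrmc1 (0.959) and Cyp4a10 (0.958). Retsat, Aldh1a1 and Rdh16 act on retinoids, and Slc25a17 carries CoA across the peroxisomal membrane. Those most like Acot2 included Upb1 (0.972), Retsat (0.956), Reep6 (0.953), Acss3 (0.952), Acot1 (0.949), Cyp4a14 (0.946) and Echdc3 (0.946). In deviations, the genes most like Acot1 were Rilpl2 (0.832), Slc17a8, March5, Fbxw7, Klhl36, Zfp668, Kif5b and Caln1 (0.798), and those most like Acot2 were Zfp266 (0.895), Bnip3, Slc36a1, Hmgb1, Fam214a, Gm7463, Hadh and Zkscan8 (0.810).

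Textbook targets of PPARα outside the family were counted beside it, 47 listed and 46 tested. Between ranges, 31 fell from the lower to the higher range and 1 rose at an adjusted p under 0.05, against 9.11% of all genes lower and 16.5% higher, with a median log2 difference of -0.49 against 0.047 over all genes. By compartment, 6 of 6 tested genes of ω-oxidation and the endoplasmic reticulum fell, 9 of 12 peroxisomal, 11 of 16 mitochondrial and 5 of 12 genes of lipid handling and hormones, and the 1 that rose was the mitochondrial carrier Ucp2. Cyp4a10 and Cyp4a14, fatty acid ω-hydroxylases, fell by 3.38 (SE 0.21, adjusted p = 3.29e-07) and 3.53 (SE 0.25, adjusted p = 1.09e-06) on the log2 scale, close in size to Acot1. Ehhadh, the peroxisomal bifunctional enzyme, fell by 1.29 (SE 0.088, adjusted p = 7.07e-07). Pdk4 (-0.0027, adjusted p = 0.995) and Fgf21 (0.34, adjusted p = 0.269), both also PPARα targets, did not pass. The gene for the receptor, Ppara, did not pass either (-0.12, SE 0.15, adjusted p = 0.600). Hnf4a, another liver nuclear receptor, rose by 0.33 (SE 0.11, adjusted p = 0.0484).

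**Figure D5:**
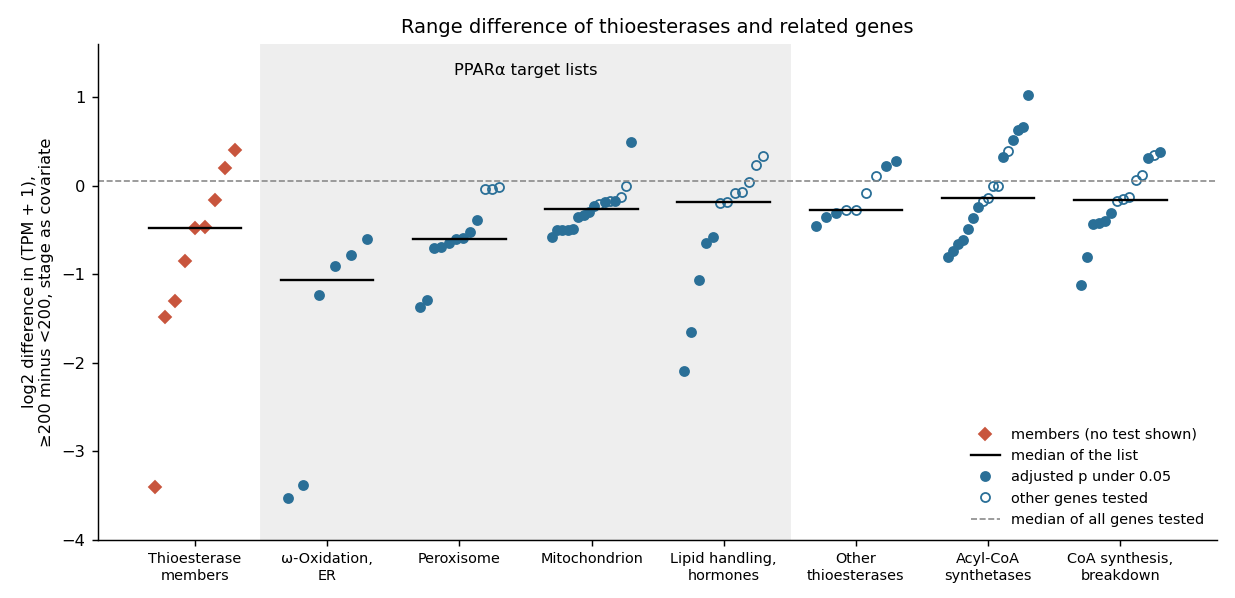
Log2 difference in (TPM + 1), 200 and above minus under 200 with stage as a covariate, for each gene (points) of the family (red diamonds, the 9 members tested, with no test shown) and of 7 related lists (blue circles, filled where the adjusted p is under 0.05), with the median of each list (solid line) and of all genes tested (dashed line). The ω-oxidation list, the peroxisomal list and the family have the lowest medians, at -1.07, -0.60 and -0.48.

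Between ID6 and LAC, 17 of the 46 targets fell and 3 rose at an adjusted p under 0.05, against 4.73% of all genes lower and 18.1% higher. In the mice numbered 200 and above 5 fell and 3 rose, against 3.58% lower and 10.5% higher, and with range as a covariate 8 fell and 2 rose. The median log2 difference was -0.37 against 0.099 over all genes, and -0.031 against 0.096 in the mice numbered 200 and above. The 5 that also passed the fold threshold were Cyp4a10 (-5.04), Cyp4a14 (-5.19), Cyp4a31 (-2.46), Ehhadh (-1.22) and Cd36 (-1.17), a fatty acid uptake receptor. Within the higher range 3 remained past it, against 1.55% of all genes, namely Cyp4a10 (-3.71, SE 0.35, adjusted p = 3.14e-05), Cyp4a14 (-3.19, SE 0.48, adjusted p = 6.87e-04) and Cyp4a31 (-2.08, SE 0.24, adjusted p = 9.72e-05). Cyp4a10 went from 246 ± 28.8 TPM in LAC (SD, n = 3) to 20.9 ± 15.1 TPM at ID6 (n = 6) there. Between LAC and NUL, 1 target was called when pooled, Cyp4a31 (1.38, SE 0.22, adjusted p = 5.46e-04), and 4 within the higher range. Of those 4, 3 were higher in LAC and 1 lower, beside 112 and 76 of 16062 genes. At an adjusted p under 0.05 alone, 1 target was higher and 5 lower when pooled, beside 441 and 1053 of 16230 genes. Within the higher range 4 were higher and 9 lower, beside 425 and 720 of 16062 genes. Between ID6 and NUL 3 were called, all lower, Cyp4a10 (-3.07), Cyp4a14 (-4.52) and Cyp4a31 (-1.09), and within the higher range 1, Cyp4a14 (-3.19). Cyp4a10 was the only 1 of these targets whose interaction of stage and range passed an adjusted p under 0.05 (1.33, SE 0.20, adjusted p = 0.0292). At an unadjusted p under 0.05 the interaction counted 17 of the 46, beside 2161 of 16230 genes.

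Of 11 other thioesterase genes, 9 were tested. Acot6, the sixth gene of the chromosome 12 cluster, followed its neighbours at low levels, 1.39 to 2.49 TPM in the 6 lower-numbered mice and 0.74 to 1.58 TPM in the 7 higher-numbered NUL and LAC mice, and fell by 0.45 on the log2 scale between ranges (SE 0.069, adjusted p = 5.18e-04). Acot11, of the type II group, fell by 0.35 (SE 0.057, adjusted p = 8.28e-04) from levels under 1 TPM. In all, 3 of the 9 fell between ranges and 2 rose, against 9.11% and 16.5% of all genes. The third to fall was Lypla1 (-0.31, adjusted p = 0.00337). Those that rose were Ppt2 (0.28, adjusted p = 0.00242) and Lypla2 (0.22, adjusted p = 0.0067). Acot10 was at 0 to 0.01 TPM. Baat, which joins bile acids to amino acids and is related to the type I enzymes, did not pass between ranges (-0.087, adjusted p = 0.567) and rose from LAC to ID6 by 0.31 (SE 0.094, adjusted p = 0.0238), a call lost within the higher range (0.28, adjusted p = 0.0877). From LAC to ID6, Acot6 fell by 0.54 (SE 0.15, adjusted p = 0.0126) with all mice and by 0.32 (SE 0.14, adjusted p = 0.167) within the higher range, so that its call was lost there. In all, 3 of these genes rose and 2 fell from LAC to ID6, against 18.1% and 4.73% of all genes. Within the higher range 1 rose and none fell, and under median-ratio scaling 1 rose and 3 fell. In the higher range 4 of the 8 tested there had an unadjusted p under 0.05, beside 4449 of 16062 genes.

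Pctp, the phosphatidylcholine transfer protein that binds Acot13, was lowest at ID6. It measured 12.4 ± 1.43 TPM in LAC mice of the higher range (SD, n = 3), 32.8 ± 2.83 TPM in those of the lower range (n = 3) and 5.22 ± 1.79 TPM at ID6 (n = 6). From LAC to ID6 it fell by 1.82 on the log2 scale (SE 0.27, adjusted p = 9.47e-05), by 1.15 (SE 0.20, adjusted p = 0.00160) within the higher range, and between ranges by 0.86 (SE 0.15, adjusted p = 0.00135). Ppard, another receptor of the PPAR family, rose by 1.33 from LAC to ID6 (SE 0.44, adjusted p = 0.0349), a call lost within the higher range (0.71, SE 0.26, adjusted p = 0.0918), and by 1.57 between ranges (SE 0.27, adjusted p = 0.00101). Of the 11 genes of regulators and partners, 4 rose between ranges, against 16.5% of all genes. From LAC to ID6 2 rose, a share near the 18.1% of all genes, and no gene of the list rose within the higher range or under median-ratio or quantile scaling. Ppara itself did not pass from LAC to ID6 (0.078, adjusted p = 0.787).

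The synthetases that run the opposite reaction were counted too, 17 of 18 tested. From NUL to LAC 5 passed at an adjusted p under 0.05, all of them higher, against 2.72% of all genes higher, among them Acsl3 (0.93), Acsl4 (0.98) and Acsl5 (0.51), long-chain acyl-CoA synthetases, and Aacs (1.44), the acetoacetate enzyme of lipid synthesis and the only 1 past the fold threshold. From LAC to ID6 7 passed, all of them lower, against 4.73% of all genes lower, with Aacs at -1.55 (SE 0.35, adjusted p = 0.00334) and Acsf2 at -1.26 (SE 0.17, adjusted p = 5.28e-05). Acsl1, the main long-chain form of liver, did not pass in either comparison (0.067, adjusted p = 0.826; -0.28, adjusted p = 0.177) and fell by 0.37 between ranges (SE 0.12, adjusted p = 0.0339). Between ranges 7 synthetases fell and 5 rose, against 9.11% and 16.5% of all genes.

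Of 14 genes of CoA synthesis, transport and breakdown, 6 fell and 2 rose between ranges, against 9.11% and 16.5% of all genes. Slc25a17 fell by 0.81 (SE 0.050, adjusted p = 3.49e-07), from 53.4 ± 1.74 to 29.9 ± 2.23 TPM in LAC (SD, n = 3 each). Nudt7, the peroxisomal CoA diphosphatase, fell from NUL to LAC by 0.83 (SE 0.18, adjusted p = 0.00642) and rose to ID6 by 0.76 (SE 0.19, adjusted p = 0.00649). Both calls were lost within the higher range (-0.55, adjusted p = 0.142, and 0.44, adjusted p = 0.151). Its relative Nudt19 passed in neither (0.21, adjusted p = 0.142; -0.051, adjusted p = 0.720). From LAC to ID6 2 of the 14 rose and 2 fell, against 18.1% and 4.73% of all genes, and within the higher range 1 and 1. Enpp3, which breaks down nucleotides and CoA outside the cell, fell from NUL to LAC by 1.15 (SE 0.32, adjusted p = 0.0310), a call lost within the higher range (-0.83, adjusted p = 0.0836). Between ranges it fell by 1.13 (SE 0.20, adjusted p = 0.00155), and its NUL levels were 20.4 ± 2.71 TPM under 200 (SD, n = 3) and 6.63 ± 2.31 TPM at 200 and above (n = 4).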

How the data were processed

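Liver poly(A) RNA from 19 mice was sequenced as paired ends by the authors, who estimated gene levels with RSEM 1.3.1 on GRCm38. The deposited values are TPM, already scaled per library, so depth cannot be recovered and the authors' count-based test was not repeated. Each mouse was 1 sample, grouped by the stage in its label. Genes averaging 0.1 TPM or more (16230 of 51826 entries, 26140 of them above 0) were fitted as log2(TPM + 1), a pseudocount of 1 that understates changes of low genes, with limma 3.58.1 (trend) in R 4.3.3 and Benjamini-Hochberg adjustment over all genes tested. Called means an adjusted p under 0.05 and a log2 difference of at least 1. Stage fits used all 19 mice, and range fits used the 13 NUL and LAC mice. The scripts were tested on simulated data. The members and gene lists were chosen with earlier results of these data known. Named genes were all members, fixed genes of each list, list genes called in a stage comparison (at most 4 per direction) and the 8 genes most like Acot1 and Acot2, of which 1 is not reported here. The within-stage range fits, the list counts between ranges, Zhx2, H19 and Afp were added after seeing the data, as were the other list genes named. Nudt8 has 2 entries and was left out. Alternatives covered the pseudocount, the filter, scaling, moderation, range and each mouse left out.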

Additional observations from a re-analysis of the deposited data

Results flagged for a closer look

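Acot5 was set apart in 2 of the 30 groups of member values checked for 1 mouse far from the others. Among NUL mice the gap between the highest mouse (0.06 TPM) and the next was 0.667 of the whole range. Among ID6 mice it was 1.0, because 1 mouse was at 0.01 TPM and the others were listed at 0. A nominal chance rate of about 1 in 20 groups need not hold here, since most mice of both groups were listed at 0. Both values are below the 0.1 TPM mean required for testing.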

How the results depend on the processing

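The 252 values of the member range differences under alternatives kept their direction, and 250 kept their side of the threshold. Acot9 passed without NUL_221 and Acot13 under median-ratio scaling. Except for the contrast within NUL, these fits include the LAC mice that took part in choosing the family. Over all genes, a pseudocount of 0.1 TPM moved the calls from 121 to 330 (LAC against NUL), from 314 to 894 (ID6 against LAC) and from 41 to 95 (ID6 against NUL). Without a fold threshold they were 1494, 3703 and 707. With mice numbered 200 and above they were 188 for LAC against NUL and 25 for ID6 against NUL. Leaving out 1 mouse gave 253 to 343 for ID6 against LAC and 28 to 60 for ID6 against NUL. For PPARα targets, the calls of 1, 5 and 3 became 6, 20 and 13 without a fold threshold and 4, 3 and 1 in mice numbered 200 and above. With range as a covariate they were 3 for LAC against NUL and 3 for ID6 against LAC. Leaving out 1 mouse gave 1 to 2 (2 without NUL_4 or NUL_13), 4 to 5, and 1 to 3 (1 without ID6_201). Between ranges, without a fold threshold, 7 members were called in place of 3 and 32 targets in place of 8; leaving out 1 mouse gave 3 to 3 and 7 to 8. The family median of ID6 minus NUL, over all 10 members with the untested Acot5 included, was -0.31 (-0.37 to -0.24 leaving out 1 mouse), -0.021 with range as a covariate and -0.11 in mice numbered 200 and above. Read depth is unknown, so the counting error of low members such as Acot5 could not be given. The p-values between ranges rest on 3 to 4 mice per stage and range. Those of pooled stage fits rest on 7 NUL, 6 LAC and 6 ID6 mice. Within the higher range, stage fits hold 4 NUL, 3 LAC and 6 ID6 mice.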
